A study of Homo sapiens with 2 samples.

Results

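Genes of tight junctions and cadherins were followed in H2228 cells with and without interleukin 4 (IL4). The 10 genes, chosen by name with earlier results of these data known, were CLDN1, CLDN3, CLDN4, CLDN7, OCLN, TJP1, F11R, CDH1, CDH3 and PCDH18. They were read from every probe set, the group of short probes that measures a transcript on the array, that was annotated to 1 of them alone. This gave 18 probe sets for 9 genes, of 19775 genes in all. F11R was not analysed here, since the annotation used paired no probe set with it.
The H2228 line comes from a human lung adenocarcinoma, and both groups carried its EML4-ALK variant 3 fusion. The IL4 group consisted of 1 array of H2228 cells treated with 100 ng/mL IL4 for 30 min according to the description of the series. The untreated group consisted of 1 array of H2228 cells without treatment. The labels of both arrays also mention transfection for 48 h with EML4-ALK plasmids, EML4-ALK siRNAs or negative controls, and do not say which, if any, was used here. As each condition had 1 array, the conditions could not be tested against each other, and every difference below is between 2 arrays of 1 cell line.

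Tight junctions seal the space between neighbouring epithelial cells. Claudins and occludin (OCLN) cross the membrane there, and the scaffold protein ZO-1 (TJP1) ties them to actin. Adherens junctions lie next to them and hold cells together through cadherins, whose tails bind catenins. E-cadherin (CDH1) is the main cadherin of epithelia, P-cadherin (CDH3) is found in basal layers of many epithelia, and protocadherins such as PCDH18 are more distant relatives. In airway epithelium, these junctions form the barrier to inhaled material, and IL4 is known to affect that barrier.

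The values deposited by the authors are on a log2 scale, so a log2 difference of 1 is a doubling, and each was taken as IL4 minus untreated. Values were compared within a probe set only, because probe sets differ in how brightly they report a transcript. Values under 5.03, the median over the whole array, are called dim, and no fold is given where either value was dim. Each gene was represented by whichever of its probe sets was brightest on average, and genes count as higher or lower from 1.5-fold, a log2 difference of 0.58. Over 6056 genes whose second probe set was not dim on average, the log2 differences of both probe sets differed with a standard deviation of 0.25, which measures disagreement within the arrays and not the variation between cultures. Of 54675 probe sets, 4528 (8.28%) held the same value on both arrays to every digit, 13.4% of the dim ones and 3.12% of the others. RMA is the processing named for these values. How the ties arose, in that processing or in another step before deposit, was not tested, and equal values are not read as equal expression. As a sign of RNA quality, the log2 signal at the 3' end over that at the 5' end was compared for the control genes. IL4 minus untreated, it differed by -0.30 for ACTB, more than the 0.25 between probe sets, and by -0.015 for GAPDH, and its part in the differences below was not tested. The labelled epithelial origin was checked on 11 epithelial markers, none of them dim on average. The epithelial adhesion molecule gene EPCAM was at 11.62 with IL4 and 11.80 in untreated cells. Of 10 leukocyte, 10 fibroblast and 10 endothelial markers, 3 of each list were not dim on average. PTPRC, the general leukocyte marker, was at 2.37 with IL4 and 2.50 in untreated cells. Its log2 difference of -0.13 was the lowest of the leukocyte list, whose median was 0.075. The leukocyte markers not dim on average were LAPTM5, CD3E and ITGAM. LAPTM5 was at 6.57 with IL4 and 6.38 in untreated cells, CD3E at 5.59 and 5.56, and ITGAM at 5.19 on both arrays. Of the fibroblast markers, COL1A1, a collagen gene, was far from dim, at 11.23 with IL4 and 10.82 in untreated cells. FAP, a protease gene, was at 7.22 with IL4 and 6.74 in untreated cells. The collagen gene COL3A1 was the 1 fibroblast marker past 1.5-fold, with a log2 difference of 0.78 between dim values. The summed log2 values of these lists were 45.53, 51.97 and 47.57 with IL4, and 44.51, 50.39 and 46.13 in untreated cells. Both arrays are of 1 cell line, and any part of such cells in the differences was not tested. In a bulk sample, a change in the number of cells of a type and a change in RNA per cell cannot be told apart.

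With IL4, CLDN1, CDH3 and CDH1 were higher and PCDH18 was lower by at least 1.5-fold. Thus 3 of the 9 genes were higher, where 3.21% of all genes were, and 1 was lower, where 4.39% of all genes were. Since the genes were chosen with earlier results of these data known, such shares describe the set and do not test it. PCDH18 was dim with IL4, so no fold is given for its decrease. The other 5 genes, TJP1, CLDN3, CLDN4, CLDN7 and OCLN, differed by less than 1.5-fold. At 2-fold, CLDN1 and CDH3 were higher, where 1.11% of all genes were, and PCDH18 was lower, where 0.89% were. The median log2 difference of the 9 genes was 0.47, and that of all genes was 0. Of the 18 probe sets, 12 were higher with IL4, 5 were lower and 1 was equal.

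**Figure D1:**
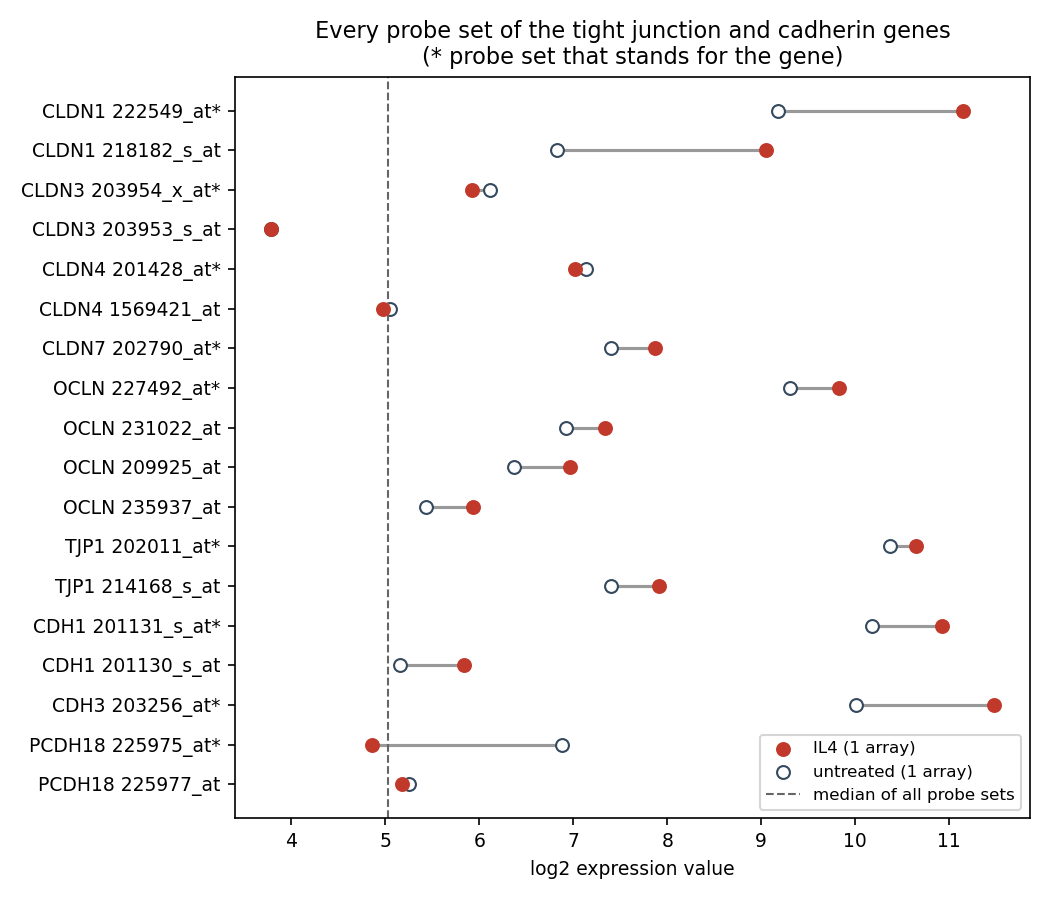
Log2 values (x axis) of all 18 probe sets of the members (rows) with IL4 (filled circles) and in untreated cells (open circles), 1 array each. The circles of both CLDN1 probe sets lie 1.96 and 2.22 apart, whereas the 2 circles of CLDN3 probe set 203953_s_at coincide at 3.79 and those of the dimmer PCDH18 probe set nearly touch.

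CLDN1 had the largest increase of the members. Claudin-1, its product, is a sealing claudin, needed for the barrier of the skin in mice. Its probe set 222549_at was at 11.15 with IL4 and at 9.18 in untreated cells, which is 3.90-fold higher. Its other probe set, 218182_s_at, was at 9.05 with IL4 and at 6.83 in untreated cells, which is 4.67-fold higher. Both probe sets thus gave a large increase, with log2 differences of 1.96 and 2.22. Of all 19775 genes, 34 had a larger difference than CLDN1.
CLDN3, CLDN4 and CLDN7 did not reach 1.5-fold. CLDN7, which encodes a claudin of the sides as well as the top of epithelial cells, was at 7.87 with IL4 and at 7.40 in untreated cells, a log2 difference of 0.47 from its 1 probe set. CLDN4, which encodes a receptor of a Clostridium perfringens toxin, was at 7.02 with IL4 and at 7.13 in untreated cells, a log2 difference of -0.11. The second CLDN4 probe set was dim on average and had a log2 difference of -0.073. CLDN3, which encodes another receptor of that toxin, was at 5.92 with IL4 and at 6.11 in untreated cells, a log2 difference of -0.19. The second CLDN3 probe set was at 3.79 on both arrays. CLDN3 and CLDN4 are neighbours on chromosome 7, with no other protein-coding gene starting between them in RefSeq (GRCh38.p14). Both were lower with IL4 on their brightest probe sets, by less than 1.5-fold. CLDN1 overlaps CLDN16 on chromosome 3, and CLDN16 was at 5.73 with IL4 and at 5.66 in untreated cells. Of the 4 claudins, CLDN1 had the highest log2 difference and CLDN3 the lowest.

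OCLN and TJP1 were slightly higher on all their probe sets. OCLN was measured by 4 probe sets, more than any other member. The brightest, 227492_at, was at 9.83 with IL4 and at 9.30 in untreated cells, which is 1.44-fold higher and just under the level of 1.5-fold. The others were at 7.33, 6.96 and 5.93 with IL4, and at 6.93, 6.37 and 5.43 in untreated cells. The 4 log2 differences lay between 0.41 and 0.60, so the probe sets differed little among themselves, and 1 of them, 209925_at, was past 1.5-fold (1.51-fold). TJP1 was at 10.64 with IL4 and at 10.37 in untreated cells on 202011_at, a log2 difference of 0.27. On 214168_s_at it was at 7.91 with IL4 and at 7.40 in untreated cells, a log2 difference of 0.51. RefSeq lists a transcribed pseudogene of OCLN (OCLNP1) and pseudogenes of TJP1 (TJP1P1) and CLDN7 (CLDN7P1), and whether the probe sets also bind their transcripts was not tested, so these values are uncertain in that respect.

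The stretch of DNA around the gene start was read for the members that RefSeq's promoter table (GRCh38.p14) holds, from 250 bases before the start to 50 after it. It held 12 such windows for 7 members, CLDN1, CLDN3, CLDN4, CLDN7, OCLN, TJP1 and PCDH18. Those of CDH1, CDH3 and F11R were not analysed here. Each window was searched on both strands for TTC and GAA with 4 bases between them, the spacing preferred by STAT6, the transcription factor that IL4 activates, for TTC and GAA with 3 bases between them, the spacing of other STAT proteins, for CAGGTG, an E-box bound by repressors of epithelial genes such as SNAI1 and ZEB1, and for TGANTCA, the AP-1 type. The 4 windows below show the gene with the largest increase, the window with most matches, the window in which matches overlap, and a gene without an increase, with every match in capitals.
CLDN1, chr3:190322397-190322696, minus strand: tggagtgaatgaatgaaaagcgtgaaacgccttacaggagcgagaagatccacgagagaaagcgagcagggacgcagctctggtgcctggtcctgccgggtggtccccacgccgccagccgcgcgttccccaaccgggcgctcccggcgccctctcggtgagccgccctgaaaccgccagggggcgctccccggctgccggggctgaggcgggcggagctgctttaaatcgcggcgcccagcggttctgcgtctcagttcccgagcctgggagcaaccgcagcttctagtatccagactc
CLDN7, second start, chr17:7262429-7262728, minus strand: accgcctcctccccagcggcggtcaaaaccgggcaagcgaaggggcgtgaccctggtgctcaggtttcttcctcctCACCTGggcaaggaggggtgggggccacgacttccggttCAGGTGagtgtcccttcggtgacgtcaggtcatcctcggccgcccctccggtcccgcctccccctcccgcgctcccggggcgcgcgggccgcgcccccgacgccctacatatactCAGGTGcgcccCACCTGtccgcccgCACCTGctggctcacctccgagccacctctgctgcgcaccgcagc
OCLN, first start, chr5:69492297-69492596, plus strand: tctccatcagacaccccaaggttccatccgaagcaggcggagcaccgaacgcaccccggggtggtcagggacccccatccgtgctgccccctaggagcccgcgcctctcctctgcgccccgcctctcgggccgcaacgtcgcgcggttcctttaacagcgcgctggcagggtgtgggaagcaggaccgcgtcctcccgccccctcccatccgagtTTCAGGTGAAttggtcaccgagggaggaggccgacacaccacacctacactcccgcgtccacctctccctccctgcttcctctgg
CLDN4, chr7:73830746-73831045, plus strand: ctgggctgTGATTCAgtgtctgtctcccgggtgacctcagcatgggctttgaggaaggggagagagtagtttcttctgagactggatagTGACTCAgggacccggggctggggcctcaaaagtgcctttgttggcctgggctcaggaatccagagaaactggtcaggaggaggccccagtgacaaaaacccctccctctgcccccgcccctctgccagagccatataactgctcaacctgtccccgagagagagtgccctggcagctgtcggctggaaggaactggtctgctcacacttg
The CLDN1 window held none of these motifs, nor did that of PCDH18. The second CLDN7 window held 5 E-boxes. In the first OCLN window, TTCAGGTGAA matched both the STAT6 spacing and the E-box, which lies inside it, 35 bases before the start. The CLDN4 window held 2 matches to TGANTCA. In all, E-boxes were in 5 of the 12 windows, the STAT6 spacing in 1, the AP-1 type in 1 and the spacing of 3 in 0. Of all 35116 windows of that length, 20.6% held an E-box, 6.44% the STAT6 spacing, 7.71% the AP-1 type and 7.66% the spacing of 3. Windows of 1 gene can overlap, as those of OCLN do. The 12 windows held between 35.7% (the fourth start of TJP1) and 72% G and C, beside a median of 58.7% over all windows, and the CLDN4 window was at 59%. A match describes the letters of the reference and not a bound site.

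**Figure D2:**
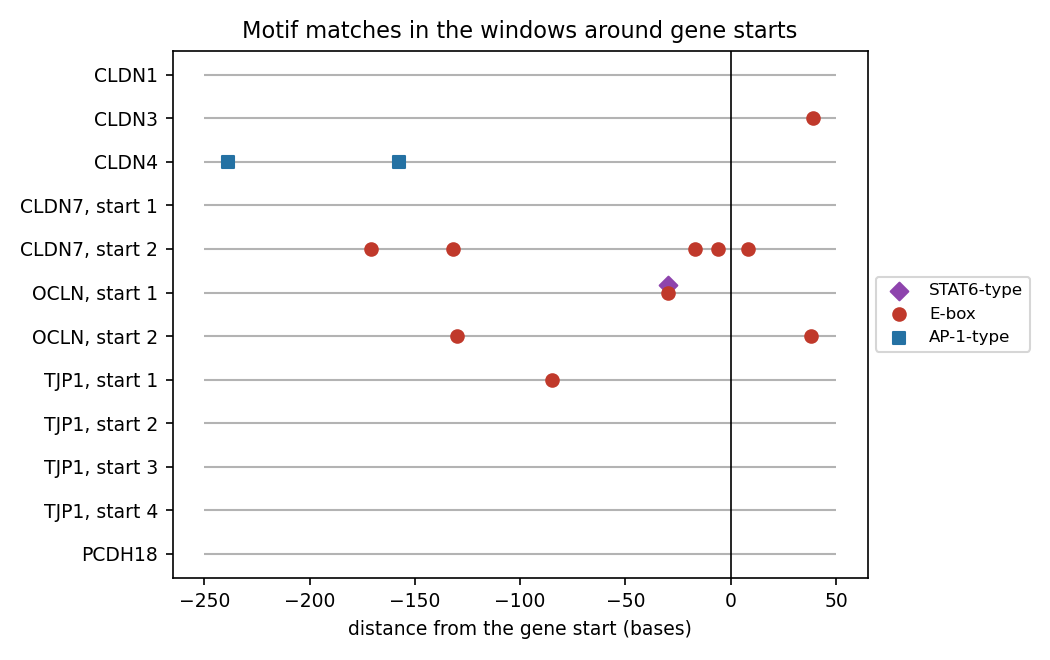
Matches to the STAT6 spacing (diamond), E-box (circles) and AP-1 type (squares) in the 12 windows around gene starts of 7 members (rows), by distance from the start in bases (x axis, 0 at the vertical line). The second start of CLDN7 has 5 E-boxes, and CLDN1 and PCDH18 have no match.

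Both classical cadherins of the set were higher with IL4. CDH3 was at 11.47 with IL4 and at 10.01 in untreated cells on its 1 probe set, 203256_at, which is 2.76-fold higher. Of all genes, 88 had a larger difference than CDH3. CDH1 was at 10.92 with IL4 and at 10.18 in untreated cells on 201131_s_at, which is 1.68-fold higher. Its dimmer probe set, 201130_s_at, was at 5.84 with IL4 and at 5.16 in untreated cells, 1.61-fold higher, so both probe sets of CDH1 were past 1.5-fold and their log2 differences were 0.060 apart. Both have names ending in _s_at, a design that can bind several transcripts, so CDH1 has no value without such probe sets. CDH3 and CDH1 lie next to each other on chromosome 16, with no other protein-coding gene starting between them. The log2 difference of CDH3 was larger than that of CDH1 by 0.72, which was not tested, because each condition had 1 array.
PCDH18 had the largest decrease of the members, and its probe sets differed. On 225975_at it was at 4.86, a dim value, with IL4 and at 6.88 in untreated cells, a log2 difference of -2.01. On 225977_at it was at 5.17 with IL4 and at 5.25 in untreated cells, a log2 difference of -0.079. The decrease therefore rests on 1 probe set. The other was close to dim on both arrays, and the average over both was -1.05.

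**Figure D3:**
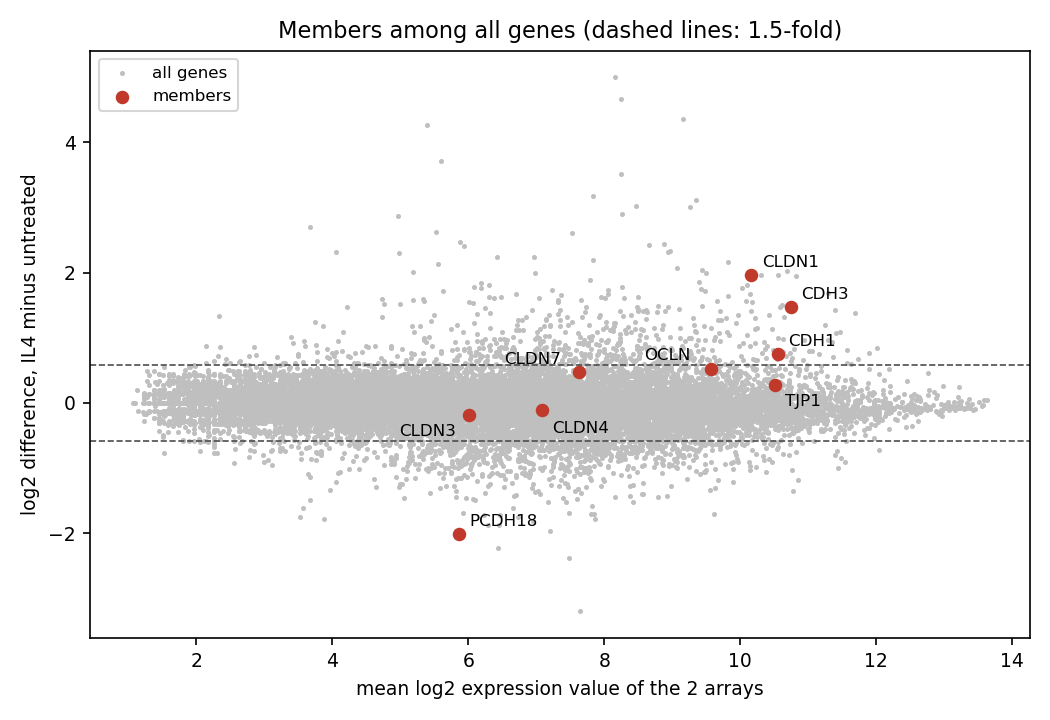
Log2 difference, IL4 minus untreated (y axis), against the mean log2 value of the 2 arrays (x axis), with a point for every gene; the 9 members are in red and 1.5-fold is dashed. CLDN1, CDH3 and CDH1 lie above the upper line at 1.96, 1.46 and 0.75, and PCDH18 lies below the lower line at -2.01.

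The other genes of cell junctions were taken from 7 lists of 136 genes, of which 124 were measured. With IL4, 8 of these (6.45%) were higher by at least 1.5-fold and 3 (2.42%) lower, and their median log2 difference was 0.0062. Of all genes, 3.21% were higher and 4.39% lower. With the mean over all probe sets of a gene in place of the brightest, 4 of the 124 were higher and 1 was lower. None of 16 other claudins reached 1.5-fold in either direction. The largest differences among them were those of CLDN8, at 5.92 with IL4 and 6.24 in untreated cells, and CLDN6, at 6.26 with IL4 and 5.94 in untreated cells, so of the 20 claudins measured CLDN1 was the 1 past 1.5-fold. Of 29 other genes of the tight junction membrane and plaque, 1 was higher and 2 were lower. LSR, which encodes a protein of the corners where 3 cells meet, was at 8.07 with IL4 and 7.35 in untreated cells, 1.65-fold higher. MAGI3, which encodes a scaffold protein, was at 6.35 with IL4 and 7.22 in untreated cells, 1.84-fold lower, but its 3 probe sets differed in sign. CXADR, the gene of the coxsackievirus and adenovirus receptor, was at 7.90 with IL4 and 8.68 in untreated cells, 1.72-fold lower, and was lower on all 4 probe sets, though by less than 1.5-fold on average (-0.49 on the log2 scale).
Of 16 genes of catenins, nectins and their partners at adherens junctions, 4 (25%) were higher and 1 (6.25%) was lower. VCL, which encodes the actin linker vinculin, was at 11.78 with IL4 and 10.81 in untreated cells, 1.96-fold higher. JUP, the gene of plakoglobin, which binds cadherin tails, was at 9.39 with IL4 and 8.56 in untreated cells, 1.78-fold higher. Both went in the same direction as CDH1 and CDH3 on probe sets whose names end in _s_at, as did LSR, and without such probe sets 2 of 13 genes of this list were higher. NECTIN2, an adhesion receptor gene, was 1.67-fold higher, at 8.05 with IL4 and 7.31 in untreated cells. AFDN, which encodes the scaffold that binds nectins, was 1.59-fold higher, at 10.01 with IL4 and 9.35 in untreated cells. PLEKHA7, whose product joins the junction to microtubules, was 1.76-fold lower, at 7.31 with IL4 and 8.12 in untreated cells. The gene of beta-catenin, CTNNB1, and that of alpha-catenin, CTNNA1, had log2 differences of 0.057 and 0.22. As means over their probe sets, VCL, NECTIN2 and AFDN gave 0.56, 0.55 and 0.47 on the log2 scale and no longer reached 1.5-fold, while PLEKHA7 gave -0.94 and JUP had 1 probe set.
None of 22 other cadherins reached 1.5-fold. Among those not dim on average, the largest differences were those of CDH23 and CDHR2. CDH23, a cadherin gene of the inner ear, was at 5.22 with IL4 and at 4.88, a dim value, in untreated cells, and its 4 probe sets had log2 differences between -0.050 and 0.52. CDHR2 had a log2 difference of 0.16. N-cadherin (CDH2) was at 5.00 on both arrays, which is dim, and CDH11, a cadherin gene of mesenchymal cells, was at 11.53 with IL4 and 11.40 in untreated cells. Among 19 other protocadherins and large cadherins, 1 was higher and 0 were lower. This was PCDH7, at 9.28 with IL4 and 8.30 in untreated cells, 1.97-fold higher and opposite in direction to PCDH18. The 5 probe sets of PCDH7 had log2 differences between 0.68 and 2.50. None of 13 desmosome genes reached 1.5-fold. Among those not dim on average, the largest differences were those of PKP1, a plakophilin gene, at 6.67 with IL4 and 6.11 in untreated cells, and DSG2, a desmosomal cadherin gene, at 10.68 with IL4 and 11.01 in untreated cells.

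**Figure D4:**
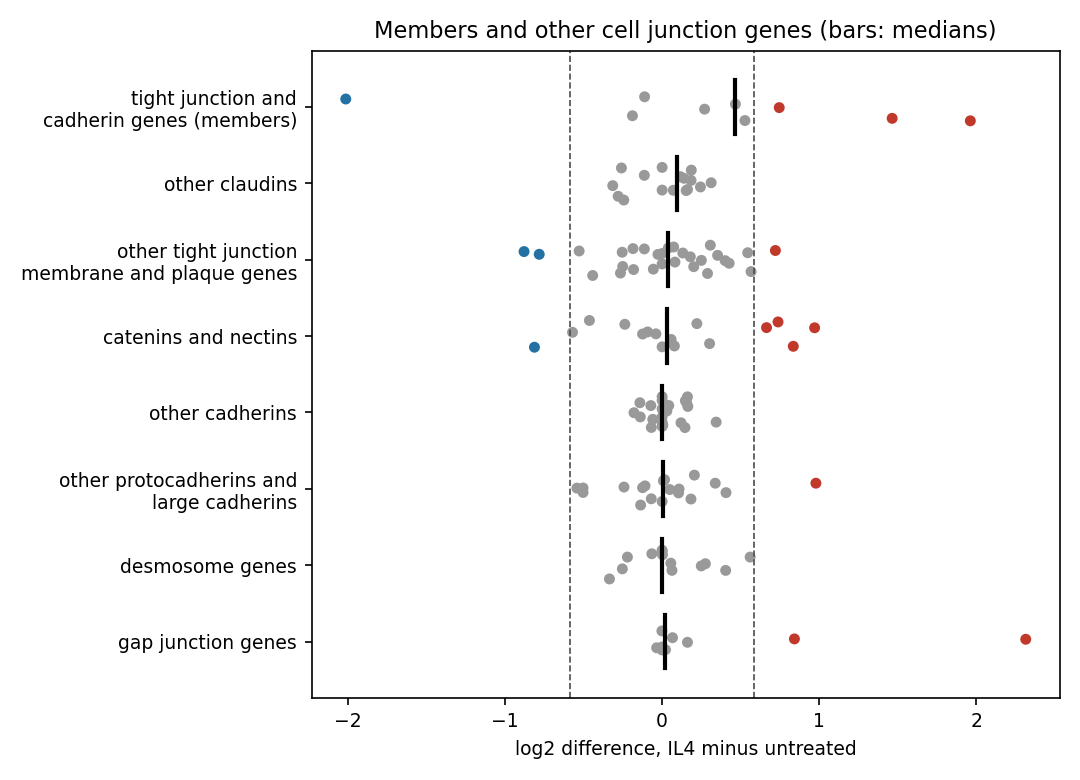
Log2 difference, IL4 minus untreated (x axis), of the 9 members and the 124 other junction genes (rows by list, scattered vertically for visibility), 1 point per gene. Medians are drawn as bars and 1.5-fold as dashed lines, with genes past it in red (higher) and blue (lower); the members' median is 0.47 and the row of other claudins has no coloured point.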

How the data were processed

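H2228 cells were measured with IL4 and without treatment on 1 Affymetrix U133 Plus 2.0 array each. The deposited data give every probe set a log2 expression value on each array. RMA, which corrects background, equalizes the arrays and summarizes probes, is named in the notes of the submitters with no version, and the methods mention GCOS software. No build applies to such values. Scanner files were not used here.
Of 54675 probe sets, 41097 carried 1 gene in the array annotation, 1801 carried several and the others none. By gene number, 41043 of the single-gene entries took the current symbol of the RefSeq table (GRCh38.p14). Probe sets with several genes were left out. Arrays give no read depth, and their number limits the precision: no test, p-value, standard deviation between cultures or left-out replicate was possible.
The members and lists were chosen with earlier results of these data known. All members were named, and from each junction list up to 4 increases and 4 decreases past 1.5-fold among genes not dim on average, or else the 2 largest differences. CTNNB1, CTNNA1, CDH2, CDH11, CLDN16, GJA1, GJB2 and the markers EPCAM, PTPRC, LAPTM5, CD3E, ITGAM, COL1A1, COL3A1, FAP, ST14, ELF3 and ESRP1 were named outside this rule, after their values were seen. Some list genes (12 of 136) were not analysed here, nor were protein sequences. Alternatives were a 2-fold level, the mean over probe sets, the second probe set, omission of probe sets with _x_at, _s_at or _a_at names, whose design allows several targets, loess (fraction 0.3), quantile normalization, centring, and minimum mean levels at the median or 75th percentile of the array. The calculation was tested on simulated data with planted differences of at least 2-fold. This checked the code and not the error of calls near 1.5-fold in these arrays. Python 3.11.15 with numpy 2.4.6, pandas 2.3.3, statsmodels 0.14.6 and matplotlib 3.10.9 was used.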

Additional observations from a re-analysis of the deposited data

How the results depend on the processing

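The number of members at least 1.5-fold higher with IL4 was 3 and stayed between 2 and 4 under all 9 alternatives. Neither the floor at the median nor centring could change it. All 9 members were at or above that floor, and the median difference taken off by centring was 0. OCLN joined the higher genes with loess (log2 difference 0.60). CDH1 and CLDN3 had no probe set left once those designed for several targets were omitted, and 2 of the remaining 7 genes were higher. With the second probe set, 2 of 7 genes were higher, as CDH3 and CLDN7, with 1 probe set each, dropped out. The 1 lower member, PCDH18, was lost with the second probe set (0 of 7 genes, log2 difference -0.079) and with the floor at the 75th percentile (0 of 7 genes). Its average over both probe sets was -1.05. The median of the members lay between 0.41 and 0.53. Of 50 recomputed member values, 47 were within 0.25 of the reported value and 3 were further from it. These 3 were both PCDH18 values above and CLDN1 at 2.22 on its second probe set. Some of the 50 could not move, so 47 overstates the stability. Centring subtracted 0, and the mean over probe sets is unchanged for CLDN7 and CDH3, which have 1 probe set. Omitting multi-target probe sets left the same probe set for all 7 genes that kept any. Of the members past 1.5-fold, 0 changed direction. CLDN3, which was not past it, went from -0.19 to 0 with its second probe set. Among the other junction genes, 8 were higher and 3 were lower. These counts were 4 and 1 with the mean over probe sets, 3 and 1 with the second probe set (78 genes) and 1 and 0 at 2-fold, and 5 genes were higher with multi-target probe sets omitted. Of 126 counts within single lists, 20 moved by over 1.5 times, or to or from 0. Some of the 126 could not move either, so the share that stayed overstates the stability. Centring subtracted 0, and a count of 0 cannot rise at the 2-fold level or with a minimum mean level. No paired analysis was possible because each condition had 1 array. An effect of IL4 and any other difference between both cultures cannot be told apart here.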

Other observations

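Gap junctions, channels between neighbouring cells built from connexins, were covered by 9 measured genes, of which 2 (22.2%) were higher by at least 1.5-fold and 0 lower, where 3.21% and 4.39% of all genes were. GJB2, which encodes a connexin of the skin and inner ear, was at 5.21 with IL4 and at 2.89 in untreated cells, which is dim, a log2 difference of 2.32 on its 1 probe set. No fold is given for it. GJC1, which encodes a connexin of the heart, was at 7.53 with IL4 and 6.69 in untreated cells, 1.79-fold higher, and its 4 probe sets had log2 differences between 0.15 and 0.84, with a mean of 0.52. GJA1, the connexin gene expressed in most tissues, had a log2 difference of -0.0015.
Among the 11 epithelial markers used to check the cells, 1 was higher and 2 were lower by at least 1.5-fold. ST14, which encodes the membrane protease matriptase, was at 8.61 with IL4 and 8.01 in untreated cells, with a mean log2 difference over 3 probe sets of 0.37. ELF3, an epithelial transcription factor gene, was at 6.89 with IL4 and 8.25 in untreated cells, and ESRP1, a gene of an epithelial splicing regulator, was at 7.96 with IL4 and 8.68 in untreated cells. CDH1 and CDH3 were higher on the same arrays.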
